A study of Rattus norvegicus with 8 samples.

Results

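Classical marker genes of the cells upstream of the retinal ganglion cell (RGC) were examined in RNA from purified rat RGCs. They are the photoreceptor genes Rcvrn, Pde6b and Arr3 and the bipolar cell genes Grm6 and Prkca, taken by name from the symbol column of the study's gene table and followed through their Ensembl IDs, 5 genes of the 32623 counted. The libraries came from Sprague Dawley rats of 2 ages, embryos at day 21 (E21) and pups at postnatal day 11 (P11), with no treatment or altered allele in either, and each stage had 4 libraries from independent litters, so that each library pools the animals of a litter. RGCs were purified from dissociated retinas by immunopanning, which first takes out macrophages on a dish bearing anti-macrophage antibody and then holds RGCs on a dish bearing antibody to Thy1, a surface protein of these cells. The comparison of the stages asks how RNA changes while RGCs lose the capacity to grow axons, and it was read here for marker genes of other cells in the same libraries.

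In the retina, rods and cones turn light into an electrical signal by breaking down cyclic GMP, and they pass it to bipolar cells, which contact RGCs. Photoreceptors release glutamate in the dark, and ON bipolar cells read it through the metabotropic receptor mGluR6. In the rat most rods and bipolar cells are born around and after birth and mature over the following weeks, whereas RGCs are born before birth.

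Between 13899299 and 20116017 reads were counted on genes per library, and reads that aligned to more than one place made up 37.4% to 42.2% of the records at E21 and 31.7% to 36.3% at P11. Of the 14043 genes with enough counts for edgeR's quasi-likelihood test, 3462 (24.7%) passed both thresholds, which were 0.01 for the adjusted p and 1 for the size of the log2 fold change, 2316 (16.5%) as higher at P11 and 1146 (8.16%) as higher at E21. The first threshold alone was passed by 68.4% of the genes, 34.6% as higher at P11 and 33.8% as higher at E21, and the stages did not overlap for 71.3%. Levels are TMM-normalized CPM, in which the counts of each library are divided by its effective size, with the SD over 4 libraries, and fold changes are P11 over E21. The RGC gene Uchl1, a neuronal ubiquitin hydrolase, averaged 1603 ± 26.5 CPM in the E21 libraries and 1382 ± 69.0 CPM in the P11 libraries, and Gap43, a growth cone protein, averaged 1711 ± 44.0 CPM and 623 ± 30.8 CPM. Other defining markers of RGCs, such as Thy1 and Rbpms, were not analysed here.

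All 5 marker genes had enough counts to be tested, and 2 of them, Pde6b and Prkca, passed both thresholds, both as higher at P11. Pde6b had enough counts only through its P11 libraries, so its call could only be in that direction. Rcvrn was higher at P11 and Grm6 was higher at E21, each past the first threshold but not the second, and Arr3 did not pass the test. The stages did not overlap for 4 of the 5 genes, Arr3 being the exception, which is near the 71.3% of all genes tested without overlap. With 5 genes, the 2 that passed both thresholds cannot be read apart from the 24.7% of all genes tested. In bulk RNA, more cells of a type and more RNA of a gene per cell cannot be told apart.

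**Figure D1:**
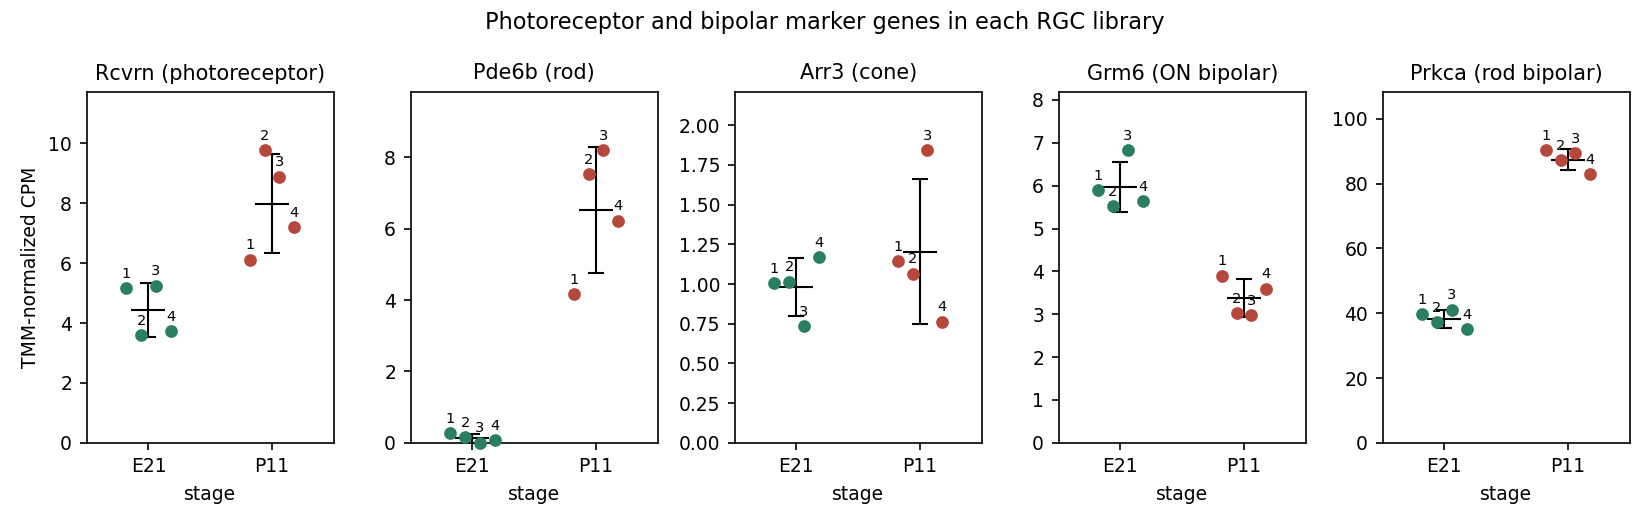
TMM-normalized CPM of the 5 marker genes in each library at E21 (green) and P11 (red), with one panel and one linear axis from 0 per gene. Numbers give the replicate, and black bars the mean and SD of 4 libraries. Pde6b lies between 0 and 0.268 CPM at E21 and between 4.17 and 8.19 CPM at P11, while the Arr3 libraries of the stages overlap.

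Pde6b (ENSRNOG00000000065) encodes the catalytic beta subunit of the rod phosphodiesterase, the enzyme that breaks down cyclic GMP when light strikes a rod. Its counts in E21 replicates 1 to 4 were 4, 3, 0 and 1, and its counts in P11 replicates 1 to 4 were 62, 127, 129 and 114. In CPM these were 0.268, 0.152, 0 and 0.0731 at E21 and 4.17, 7.52, 8.19 and 6.22 at P11. Every P11 library was therefore far above every E21 library, and E21 was near the floor of 3 counts, which corresponded to 0.152 to 0.219 CPM. The means were 0.123 ± 0.115 CPM and 6.52 ± 1.77 CPM (n = 4 each). In edgeR the change was 5.69 on the log2 scale (SE 0.40), with an adjusted p of 4.47e-09. Because only 8 reads carried the E21 level, the ratio of the pooled rates was 55.3 with an exact binomial 95% interval from 27.8 to 129, which covers counting error only.

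Rcvrn (ENSRNOG00000003633) encodes recoverin, the calcium sensor that restrains rhodopsin kinase in rods and cones and that some cone bipolar cells also make. Its CPM in E21 replicates 1 to 4 was 5.15, 3.60, 5.25 and 3.73, and in P11 replicates 1 to 4 it was 6.12, 9.77, 8.89 and 7.20. The lowest P11 library, replicate 1, lay just above the highest E21 library. The stage means were 4.43 ± 0.890 and 7.99 ± 1.64 CPM, which edgeR put at a log2 difference of 0.85 (SE 0.17, 95% interval 0.49 to 1.21) with an adjusted p of 2.69e-04. Unlike Pde6b, Rcvrn was thus well above the floor at E21, with 51 to 100 counts per library.

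Arr3 (ENSRNOG00000002904) encodes cone arrestin, which binds light-activated cone opsins and ends their signal. Its counts were 15, 20, 14 and 16 in E21 replicates 1 to 4 and 17, 18, 29 and 14 in P11 replicates 1 to 4, or 0.735 to 1.17 CPM before birth and 0.764 to 1.84 CPM after it. P11 replicate 3 lay above all E21 libraries, the other P11 libraries lay within their range, and the stages overlapped. The difference of 0.30 on the log2 scale (SE 0.29, 95% interval -0.33 to 0.92) did not pass, at an adjusted p of 0.373 in edgeR, and at 14 to 29 counts per library a change of that size was not detectable.

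Grm6 (ENSRNOG00000000233) encodes mGluR6, the glutamate receptor on the dendrites of ON bipolar cells. Of the 5 genes it was the one that was lower at P11. Its CPM in E21 replicates 1 to 4 was 5.89, 5.52, 6.82 and 5.63, and in P11 replicates 1 to 4 it was 3.90, 3.02, 2.98 and 3.60. All E21 libraries were above all P11 libraries. The mean went from 5.97 ± 0.590 to 3.37 ± 0.449 CPM, a log2 difference of -0.82 in edgeR (SE 0.15, 95% interval -1.14 to -0.51) with an adjusted p of 8.00e-05.

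Prkca (ENSRNOG00000003491) encodes protein kinase C alpha, the usual antibody marker of rod bipolar cells, which many other neurons also express. It was counted with 479 to 784 reads per library at E21 and 1343 to 1522 at P11. Its CPM was 39.6, 37.2, 41.1 and 35.0 in E21 replicates 1 to 4 and 90.3, 87.2, 89.4 and 83.0 in P11 replicates 1 to 4, with a wide gap between the stages and little spread within them. On the log2 scale it was 1.19 higher at P11 (SE 0.05, 95% interval 1.07 to 1.31), and the adjusted p in edgeR was 4.21e-12. Of the 5 genes it had the smallest spread at P11, the highest P11 library being 1.09 times the lowest, against 1.97 for Pde6b, 1.60 for Rcvrn, 2.41 for Arr3 and 1.31 for Grm6. These ratios include counting error, which is larger for genes with few counts, such as Arr3 with 14 to 29 per P11 library.

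The sequences just upstream of the annotated start of Pde6b, Arr3 and Grm6 are shown because these genes differed in direction, with a rise, no detected change and a fall. They are the 250 bases before the start, 5′ to 3′ on the strand of the gene, from RefSeq on the build GRCr8, which is later than the build Rnor_6.0 of the counts. Capitals mark the letters TAATC, the core read by the photoreceptor factors CRX and OTX2, and TGCTGA, outer letters of the site read by the rod factor NRL, on either strand. Pde6b is on the minus strand at chr14:1511436-1511685, Arr3 on the plus strand at chrX:69739709-69739958 and Grm6 on the plus strand at chr10:35668753-35669002.
Pde6b: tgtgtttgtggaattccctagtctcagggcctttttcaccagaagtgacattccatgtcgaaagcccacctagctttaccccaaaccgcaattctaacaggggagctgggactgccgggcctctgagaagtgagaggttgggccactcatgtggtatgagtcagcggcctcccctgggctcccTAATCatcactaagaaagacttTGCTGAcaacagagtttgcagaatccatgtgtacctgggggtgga
Arr3: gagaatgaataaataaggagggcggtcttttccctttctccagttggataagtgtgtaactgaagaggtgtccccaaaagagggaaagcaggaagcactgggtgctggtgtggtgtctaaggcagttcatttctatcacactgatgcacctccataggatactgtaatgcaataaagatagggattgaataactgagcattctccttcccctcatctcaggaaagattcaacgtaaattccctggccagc
Grm6: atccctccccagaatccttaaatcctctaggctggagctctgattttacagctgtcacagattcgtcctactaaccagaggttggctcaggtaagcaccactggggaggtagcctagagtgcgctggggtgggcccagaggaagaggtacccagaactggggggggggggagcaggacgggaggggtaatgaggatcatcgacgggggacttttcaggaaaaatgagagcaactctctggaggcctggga

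Of the 5 genes, 4 had an entry in that table, and none was found for Rcvrn. Pde6b held 1 TAATC, beginning 67 bases before the start, and 1 TGCTGA, beginning 45 bases before it. Neither was present in the windows of Arr3, Grm6 and Prkca. Over all 33469 windows of the same length in the table, 20.5% held TAATC on either strand and 15.1% held TGCTGA. The longer form TAATCC, which contains TAATC and occurred in 6.34% of all windows, and the full cyclic AMP response element TGACGTCA, which occurred in 1.59%, were found in none of the 4 windows. Among the other photoreceptor genes described below, 6 had an entry, of which 2 held TAATC (Impg2 and Pcdh15), 1 held TGCTGA (Pcdh15) and 1 held TAATCC (Pcdh15). A match is a run of letters and not a measured binding site.

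The unequal change of the marker genes could be read inside each library, without any normalization, from the share that one gene took of the counts of a pair. The pairs were chosen after the values were seen, so the shares are a description with no test. Of the counts on Pde6b and Rcvrn together, Pde6b took 4.94%, 4.05%, 0% and 1.92% in E21 replicates 1 to 4 and 40.5%, 43.5%, 48.0% and 46.3% in P11 replicates 1 to 4. The share of Pde6b was thus at most 4.94% in every E21 library. In the P11 libraries it was 40.5% to 48.0%, below the share of Rcvrn in each. Of the counts on Pde6b and Arr3, Pde6b took 9.99% ± 9.10 at E21 and 84.2% ± 4.98 at P11 (SD, n = 4), again without overlap. For Arr3 among Arr3 and Rcvrn, the shares of 18.6% ± 5.31 before birth and 13.1% ± 3.93 after it overlapped. Between the bipolar cell genes, Grm6 took 13.5% ± 0.658 of the counts on Grm6 and Prkca at E21 and 3.72% ± 0.499 at P11, without overlap.

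**Figure D2:**
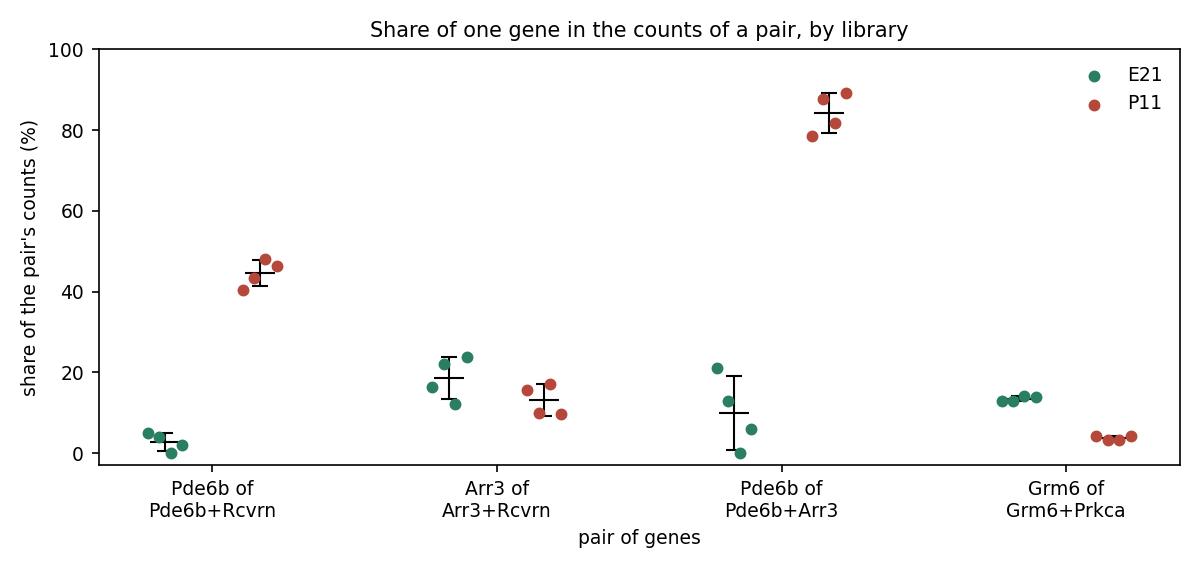
Share, in percent, that one gene took of the counts on a pair of genes, for 4 pairs, in each E21 (green) and P11 (red) library, with the mean and SD of 4 libraries in black. The share of Pde6b among Pde6b and Rcvrn is at most 4.94% at E21 and at least 40.5% at P11, and the shares of Arr3 among Arr3 and Rcvrn overlap.

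Other genes of phototransduction and of photoreceptor identity and structure were taken from a list of 54 symbols, of which 7 could be paired with an ID. All 7 were tested, 4 passed both thresholds as higher at P11 and none as higher at E21, and 2 more, Rgs9 and Pcdh15, were higher at P11 by the first threshold only. Of the 4, Pdc, Prdm1 and Tulp1 had enough counts for the test only through their P11 libraries. Their calls could therefore only be in that direction. Over all genes tested, 16.5% passed both thresholds as higher at P11 and 34.6% passed the first in that direction, and the 7 are those of the list that had an ID at hand. The median log2 fold change of the 7, with Pdc, Prdm1 and Tulp1 among them, was 2.80, against -0.00416 over all genes tested. The remaining symbols of the list were not analysed here.

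Pdc, Prdm1 and Tulp1 started near the floor at E21. Pdc, which encodes phosducin, a partner of the rod G protein, had 2, 4, 6 and 5 counts in E21 replicates 1 to 4 and 85, 119, 118 and 122 in P11 replicates 1 to 4. Its mean rose from 0.254 ± 0.105 to 6.72 ± 0.756 CPM, by 4.70 on the log2 scale (SE 0.24), with an adjusted p of 2.06e-11 in edgeR. Prdm1, whose product Blimp1 holds young photoreceptors to their fate, had 2, 3, 0 and 0 counts at E21 and 41, 54, 58 and 81 at P11. It rose from 0.0715 ± 0.0829 to 3.51 ± 0.712 CPM, by 5.44 on the log2 scale (SE 0.43, edgeR adjusted p 4.44e-09), and the ratio of the pooled rates was 47.9 (exact binomial 95% interval 20.2 to 149). Tulp1, needed for protein transport in photoreceptors, rose from 0.509 ± 0.0970 to 8.46 ± 2.15 CPM, by 4.01 on the log2 scale (SE 0.25, edgeR adjusted p 1.70e-10). In each of the 3 genes every P11 library was above every E21 library.

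Impg2, a proteoglycan of the matrix around photoreceptors, was present in all E21 libraries at 1.32 to 1.47 CPM and rose to between 7.12 and 12.8 CPM (log2 difference 2.80, SE 0.19, edgeR adjusted p 5.75e-10). Rgs9, which speeds the shut-off of the photoreceptor G protein, went from 20.9 ± 1.10 to 36.2 ± 1.92 CPM, a log2 difference of 0.79 (SE 0.06, edgeR adjusted p 6.71e-09) that stayed under the second threshold. Pcdh15, a protocadherin of photoreceptors and hair cells, lay between 4.93 and 7.23 CPM at E21 and averaged 12.2 ± 1.17 CPM at P11, a log2 difference of 0.98 (SE 0.13, edgeR adjusted p 3.35e-06), just under that threshold, and it passed without E21 replicate 1 (1.05), E21 replicate 2 (1.08), P11 replicate 1 (1.02) or P11 replicate 2 (1.02). Prom1, which encodes a membrane protein of outer segment discs and of other cells, averaged 3.19 ± 0.616 CPM before birth and 2.73 ± 0.440 CPM after it and did not pass (log2 difference -0.22, 95% interval -0.63 to 0.18, edgeR adjusted p 0.300).

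**Figure D3:**
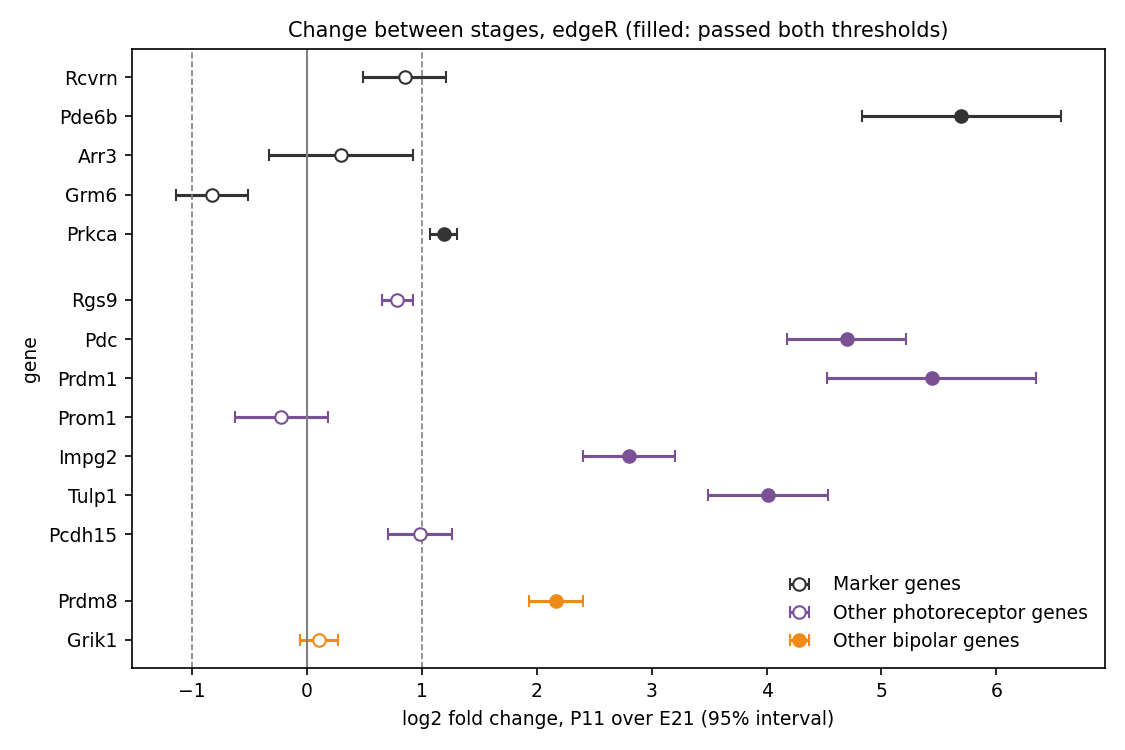
log2 fold change, P11 over E21, with its 95% interval from edgeR's quasi-likelihood fit, for the 5 marker genes (black), the other photoreceptor genes tested (purple) and the other bipolar cell genes tested (orange). Filled points passed both thresholds and dashed lines mark a log2 fold change of 1 in each direction. Grm6, at -0.82, and Prom1, at -0.22, are the 2 points below 0.

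Of 31 further symbols of bipolar cells, 5 could be paired and 2 passed the filter on low counts. Prdm8, a transcription factor of rod bipolar and amacrine cells, was at 9.04, 10.2, 10.9 and 8.48 CPM in E21 replicates 1 to 4 and at 49.1, 42.8, 48.0 and 35.8 CPM in P11 replicates 1 to 4. The stages were far apart, and it passed both thresholds at a log2 difference of 2.17 (SE 0.11, edgeR adjusted p 2.16e-10). Grik1, a kainate receptor subunit of OFF bipolar cells and other neurons, averaged 27.5 ± 2.63 and 29.6 ± 2.84 CPM and did not pass (log2 difference 0.10, 95% interval -0.07 to 0.27, edgeR adjusted p 0.246).

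The genes that the filter left out were compared by exact permutation tests, with adjustment over 10 such genes. Lhx4, a homeobox gene of cone bipolar cells, had 10 to 17 counts per library at E21 and 2 to 10 at P11. Its CPM did not overlap between the stages, at 0.608 to 1.14 at E21 and 0.134 to 0.545 at P11. Its level was 0.842 ± 0.229 CPM before birth and 0.400 ± 0.186 CPM after it (n = 4, exact permutation test, p = 0.0286, adjusted p = 0.0952). Pcp2, a G protein regulator of ON bipolar cells, had 0 to 7 counts per library, and Gabrr3, a GABA receptor subunit, had 1 to 12. Pcp2 gave an adjusted p of 0.190 in the exact permutation test. Gabrr3, at 0.297 ± 0.285 and 0.260 ± 0.0434 CPM, gave a larger one. With 4 libraries per stage the smallest p this test can give is 0.0286, the value of Lhx4. That is above the threshold for the adjusted p, so none of the genes left out could pass it at any depth. The test therefore cannot decide whether these genes differed by that threshold.

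Several photoreceptor genes shared an order of the P11 libraries, a pattern noticed after the values were seen. Pde6b, Pdc, Impg2 and Tulp1 were each lowest in P11 replicate 1, followed by replicates 4, 2 and 3. That order was held by 3.97% of all genes tested, by 2.81% of the genes called higher at P11, and by 5.24% of those called higher at P11 that had a symbol. P11 replicate 1 was the lowest library for 8 of the 10 photoreceptor genes, the exceptions being Arr3 and Rgs9, and for 26.7% of all genes tested and 18.1% of those called higher at P11. These genes were measured in the same 4 libraries and are not independent of each other, so the order is a description.

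The ratio of P11 replicate 3 to P11 replicate 1, a pair of libraries picked after the order was seen, gives the size of this spread, with exact binomial 95% intervals that cover counting error and not the spread between litters. It was 1.97 (1.44 to 2.71) for Pde6b and 1.82 (1.39 to 2.40) for Tulp1. It was 1.79 (1.41 to 2.29) for Impg2 and 1.45 (1.11 to 1.91) for Rcvrn. For Pdc it was 1.31 (0.984 to 1.75). Prkca, at 0.990 (0.918 to 1.07), and Rgs9, at 0.913 (0.811 to 1.03), did not follow the order. P11 replicate 1 was also the lowest library for 3 of the 5 vascular genes, at 0.718 of the P11 mean for Flt1, 0.885 for Flt4 and 0.208 for Erg, which had at most 10 counts per library, and Flt4 had the whole order of Pde6b. The other vascular genes, Rgs5 and Notch3, were lowest in replicate 3, with ratios of 0.727 (0.689 to 0.767) and 0.778 (0.732 to 0.827).

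**Figure D4:**
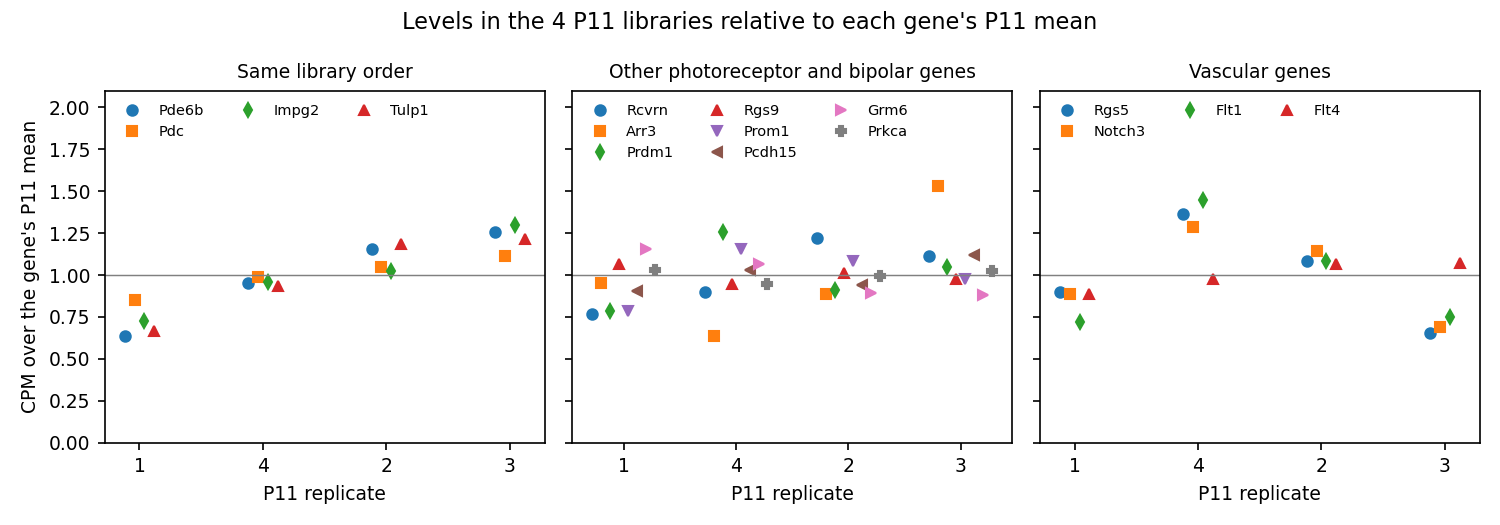
Level in each P11 library divided by the mean of the gene over the 4 P11 libraries, with the replicates arranged 1, 4, 2 and 3. The left panel holds the genes in that order, the middle panel other photoreceptor genes with Grm6 and Prkca, and the right panel 4 vascular genes. Pde6b goes from 0.639 of its mean in replicate 1 to 1.26 in replicate 3, while Rgs5 is at 0.898 in replicate 1 and 0.653 in replicate 3.

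Genes with the most similar profile were sought among 1778 other genes with a symbol, by the root mean square difference of mean-centred log2 CPM over the 8 libraries. The nearest gene to Pde6b was Prdm1, at a difference of 0.416 on the log2 scale, followed by Tnr, an extracellular matrix glycoprotein, at 0.438 and Kcnj6, a potassium channel, at 0.537. Among the nearest to Rcvrn were Shroom3 (0.176) and Klf1 (0.199), and the nearest to Arr3 were Galc (0.204), Calhm4 (0.233) and Osgepl1 (0.237). Grm6 was nearest to the ribosomal protein gene Rps10 (0.107), to Abraxas1 (0.111) and to LOC108348062 (0.113). Prkca, the marker gene with the most counts, had the closest neighbours, Susd4 (0.0482), Sidt1 (0.0654) and Tmtc1 (0.0657). Their shared direction of change follows from the way neighbours were picked.

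Genes of the other cells that a retinal preparation can hold were read in the same libraries, and their part in the results above was not tested. Of 14 vascular symbols, 5 were paired and 4 tested, and all 4 were called higher at P11, against 16.5% of all genes tested. The summed level of the 5 was 3.52 to 5.41 CPM at E21 and 283 to 556 CPM at P11. Most of the P11 sum came from Rgs5 (mean 232 CPM) and Notch3 (mean 176 CPM). Of the 4 tested, Flt1 and Flt4 had enough counts for the test only through their P11 libraries. Of 19 amacrine and horizontal cell symbols, 5 were paired and tested. Of these, 2 were called higher at P11 and 1 higher at E21, against 16.5% and 8.16% of all genes tested. Gad1, which makes GABA, rose from 0.856 ± 0.280 CPM to 13.8 ± 3.40 CPM and C1ql1, a secreted synaptic protein, from 0.195 ± 0.173 CPM to 20.6 ± 4.25 CPM, while Prox1 was called higher at E21. Gad1 and C1ql1 had enough counts for the test only through their P11 libraries. The summed level of that list went from between 429 and 446 CPM at E21 to between 343 and 347 CPM at P11, most of it from Pax6, which RGCs also express.

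Of 21 Müller glia and astrocyte symbols, 8 were paired and 5 tested. Hes1 and S100b were called higher at P11 and Gpr37 and Pdgfra higher at E21, against 16.5% and 8.16% of all genes tested. Hes1 and S100b had enough counts for the test only through their P11 libraries. The summed level of the 8 paired genes was 175 to 193 CPM at E21 and 83.4 to 106 CPM at P11, most of it from Gpr37. The defining astrocyte gene Gfap was at 3 counts or fewer throughout, and the Müller glia gene Sox9 had 4 to 14. Of 12 microglia and macrophage symbols only Aif1 and Ptprc were paired, with at most 9 and 6 counts in any library and a summed level of 0.0669 to 0.262 CPM at E21 and 0.134 to 0.952 CPM at P11. Of 18 RGC symbols, 3 were paired (Gap43, Uchl1 and Atoh7), and their summed level was 3227 to 3382 CPM at E21 and 1931 to 2051 CPM at P11. Within that sum, Gap43, called higher at E21, averaged 1711 CPM at E21 and 623 CPM at P11. Uchl1 averaged 1603 CPM and 1382 CPM and passed the first threshold only.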

How the data were processed

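RNA from immunopanned rat RGCs was sequenced from 4 independent litters at E21 and 4 at P11. The authors removed ribosomal RNA before library preparation, and their notes name Cutadapt 1.16 for trimming, PRINSEQ for quality filtering, STAR 2.5.3a for alignment to Rnor_6.0 and HTSeq 0.6.1 for counting. The deposited values are unnormalized read counts by Ensembl gene ID, one table per library. The annotation release and the strand setting are not given in the sources used here, so overlapping genes may share reads. The ATAC-seq and proteomic data were not analysed here.

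Gene symbols came from the study's gene table, of which 1998 rows were at hand. Its fold changes and normalized values were not used. Counts were filtered with filterByExpr, scaled by TMM and fitted with stage in edgeR 4.0.16 (quasi-likelihood, robust), with Benjamini-Hochberg adjustment over 14043 genes. The calling thresholds, an adjusted p of 0.01 and a log2 fold change of 1, are those of the study. Standard errors are the log2 fold change over the square root of F. Summary rows that name no gene (reads outside genes, 15.4% to 19.2% of records, and others) were left out. Permutation tests (scipy 1.17.1) were exact and two-sided. Alternatives were DESeq2 1.42.0, other scalings and filters, glmTreat, a replicate block and each library left out.

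The marker genes and lists were chosen with earlier results of these data known, and the pairs of genes, the motifs and the library order after values were seen. Named genes were the 5 markers, every listed gene with an ID, and for each marker the 3 nearest profiles (prior count 2). The results of some genes are not reported here, and a listed gene among them was left out of the counts. No same-stage pair of libraries matched within sampling noise (chi-square per degree of freedom 2.76 to 7.66).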

Additional observations from a re-analysis of the deposited data

Results flagged for a closer look

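In a group of 4 libraries, a library was singled out when its gap to the nearest other library exceeded Dixon's 95% critical value as a share of the range of the group. Chance alone singles out about 1 in 20 groups, and 4 of 88 were singled out here. Prom1 was at 2.28 CPM in E21 replicate 1 and between 3.44 and 3.60 CPM in the other E21 libraries. Sox9 was at 0.218 CPM in P11 replicate 4, against 0.381 to 0.414 CPM in the other P11 libraries. Aif1 was at 0.0525 CPM and Erg at 0.105 CPM in E21 replicate 3, with 0 counts of either gene in the other E21 libraries, values that lie below the floor of 3 counts. None of the 5 marker genes had a library singled out at either stage.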

How the results depend on the processing

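The number of marker genes that passed both thresholds stayed at 2 under all alternatives but one. When at least 10 counts were required in every library, Pde6b could not be tested, because its E21 counts are below that minimum, and 1 marker gene (Prkca) passed. The same requirement called 2 of the other photoreceptor genes, against 4. For the lists of other retinal cells and of RGCs together, it called 6 genes, against 12 of 16 tested in the main fit. The main fit called 24.7% of all genes tested. Gap43, an RGC gene, was among the 6 and among the 12. Gad1, C1ql1, Hes1, S100b, Flt1 and Flt4 could not be tested under that requirement. In the main fit these genes had enough counts only through their P11 libraries. Of the 4 photoreceptor genes, Impg2 was still called while Pdc, Prdm1 and Tulp1 could not be tested, and the second call was Pcdh15. Without any one of the 8 libraries, 2 marker genes, 4 to 5 other photoreceptor genes and 1 other bipolar cell gene passed in every fit. So did 12 genes of the lists of other cells and RGCs, and 3446 to 3600 genes in all. The log2 fold change then ranged from 5.24 to 6.28 for Pde6b, 0.75 to 0.95 for Rcvrn, 0.03 to 0.48 for Arr3, -0.90 to -0.75 for Grm6 and 1.15 to 1.23 for Prkca. No marker gene changed direction in any alternative. The replicate numbers of the labels did not pair the libraries (correlation of same-numbered deviations over genes -0.0268 to 0.0780). With the replicate number as a block, 2 marker genes, 4 other photoreceptor genes and 1 other bipolar cell gene passed. The lists of other cells and RGCs then gave 12 calls, and 3463 genes passed in all. Pcdh15 passed the fold threshold under library size scaling (1.04), upper-quartile scaling (1.03), the minimum of 10 counts (1.02) and with any of 4 single libraries left out (1.02 to 1.08). Prox1 and Pdgfra were no longer called when tested against the fold threshold itself (glmTreat, adjusted p = 0.182 and 0.0429). The differences in pair shares kept their sign without any one library. With a prior count of 0.5, 12 of the 15 nearest profiles were kept. Of those lost, Tnr and Kcnj6 were neighbours of Pde6b, replaced by Prrx1 and S100b, and Klf1 was a neighbour of Rcvrn. At E21 depth limits Pde6b, Pdc and Prdm1, whose levels rest on 5 to 17 reads over 4 libraries.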
